A study of Mus with 96 samples.

Results

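Lipoprotein lipase (Lpl) and 6 genes that act with it on lipoprotein triglycerides and on fatty acid uptake were followed in the livers of 96 mice. The genes were chosen by name from the count table, with their expression by genotype, diet and time of day already known: Lpl, Lipc, Lipg, Lmf1, Vldlr, Cd36 and Angptl4, 7 of the 55487 genes listed. All 7 reached a total of 100 counts across the 96 livers, as did 15548 genes in all, and every test was run on that set. Hep-Bmal1KO mice carried the albumin-promoter Cre (AlbCre/+) on Bmal1flx/flx, and Hep-Bmal1WT mice were Alb+/+ littermates with the same floxed alleles, so that both groups were floxed and only the former had Cre. Albumin drives Cre in hepatocytes, and the study describes the deletion as specific to them. Whether the other cells of a Hep-Bmal1KO liver keep Bmal1 was not measured by cell type. The C57BL/6J mice were 8 to 10 weeks old, were kept under 12 hours of light and 12 of darkness, and were fed for 2 weeks with normal chow (NC) or with a high-fat diet lacking choline (cdHFD). Livers were taken at ZT 2, 6, 10, 14, 18 and 22, where ZT counts hours from lights on, with 4 mice in each of the 24 groups of genotype, diet and ZT. Both sexes were used, 49 males and 47 females. RNA was measured by BRB-seq, which tags each liver's RNA with a barcode and reads the 3′ part of each mRNA.

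Triglycerides travel in the blood inside lipoproteins and have to be hydrolysed before tissues can take up their fatty acids. Lipoprotein lipase does this on the capillary wall, where it is held after secretion, and it is made mainly by fat, muscle and heart. The adult liver normally makes little of it and relies on hepatic lipase (Lipc), which works on remnants and HDL. Endothelial lipase (Lipg) is a phospholipase of the same family, and lipase maturation factor 1 (Lmf1) is the endoplasmic reticulum protein that these lipases need to fold. Angptl4 is a secreted inhibitor of lipoprotein lipase and a target of the fatty acid-sensing PPAR receptors. The VLDL receptor (Vldlr) binds triglyceride-rich particles, and CD36 brings fatty acids across the plasma membrane. In these libraries a level is given in CPM, read counts scaled to a common library size (CPM with TMM factors), and a difference as a log2 fold change with its standard error (SE) from edgeR. Reads come from the 3′ end, so levels were not compared between genes.

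In RefSeq's annotation of GRCm38.p6, the assembly of mm10 to which the reads were aligned, all 7 genes were found by symbol. Lpl (ENSMUSG00000015568) lies on chromosome 8 from 68880555 to 68906932, Lipc (ENSMUSG00000032207) on chromosome 9 from 70798128 to 70952221, and Cd36 (ENSMUSG00000002944) on chromosome 5 from 17781690 to 17888959. Lmf1 (ENSMUSG00000002279) and Angptl4 (ENSMUSG00000002289) are both on chromosome 17, from 25579174 to 25662831 and from 33774900 to 33781575. Vldlr (ENSMUSG00000024924) lies on chromosome 19 from 27216480 to 27254231 and Lipg (ENSMUSG00000053846) on chromosome 18. The median count per library was 1731 for Lpl, 1088 for Lipc, 967 for Cd36, 459 for Angptl4 and 297 for Lmf1. It was 42 for Vldlr and 28 for Lipg, which had no read in 1 library, so that these 2 genes carry the largest counting error.

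The gene counts of a library summed to between 1861740 and 9718615. The targeted gene, listed as Arntl on chromosome 7, had a lowest, median and highest level of 0.210, 7.21 and 26.1 CPM in livers labelled Hep-Bmal1WT on NC, and of 0.253, 7.55 and 13.03 CPM in livers labelled Hep-Bmal1KO. On cdHFD the values were 0.256, 7.17 and 23.01 CPM, and 1.89, 5.70 and 12.3 CPM. Taken over all ZTs the ranges overlapped, and a 3′ read outside the floxed exon does not show the deletion. Arntl varied over the day, and at some ZTs the labels differed. At ZT10 on NC it had 1.34, 0.779, 0.210 and 0.665 CPM under Hep-Bmal1WT and 8.69, 6.29, 0.253 and 7.85 CPM under Hep-Bmal1KO. At ZT6 on NC the labels overlapped, with 4.63, 9.27, 3.30 and 5.83 CPM against 6.37, 5.20, 11.1 and 1.21 CPM. The level of Arntl alone does not check the label at every ZT. Each library was therefore compared with both labels' medians at its own diet and ZT, itself left out. This was done over 10 clock genes, Arntl among them, and over 20 other genes that held none of the 7. In 7 libraries both comparisons lay nearer the other label, 4 of them on NC and 3 on cdHFD. They were Hep-Bmal1WT NC ZT6 replicate 2 and ZT18 replicate 4, Hep-Bmal1KO NC ZT6 replicate 4 and ZT10 replicate 3, Hep-Bmal1WT cdHFD ZT10 replicate 3 and ZT14 replicate 1, and Hep-Bmal1KO cdHFD ZT14 replicate 1. No library was moved. Groups are called by their labels, and values are given with these 7 libraries and without them, as 96 and 89 livers. Y-linked genes matched the labelled sex in all 96 libraries, and 1 female had under 5 CPM of Xist. All 12 plate columns held 1 label and 1 diet each, so a plate column cannot be told apart from label and diet. On NC all males were in plate rows A, B, E and F and all females in rows C, D, G and H. Sex on NC can therefore not be told apart from plate row. On cdHFD the rows held the same sexes except at ZT 2, where they were reversed, and for a male labelled Hep-Bmal1WT at ZT14. Sex on cdHFD can thus be told apart from plate row only in part. The hepatocyte genes Alb, Ttr, Apoa1 and Fgb together had at least 47238 CPM in every liver.

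Lpl was the member with the widest difference between the labels. On NC its lowest, median and highest level was 8.54, 26.8 and 539.8 CPM in the 24 livers labelled Hep-Bmal1WT, and 17.1, 348.7 and 466.9 CPM in the 24 labelled Hep-Bmal1KO. The extremes that made these ranges overlap belonged to the 4 NC libraries named above. They had 539.8 and 228.9 CPM under the label Hep-Bmal1WT and 17.1 and 20.5 CPM under the label Hep-Bmal1KO. In the remaining 44 livers the level ran from 8.54 to 74.8 CPM under the first label and from 214.5 to 466.9 CPM under the second, with no overlap. Of all genes tested, 14 (0.09%) were without overlap between the labels in those livers, and of the 7 members only Lpl. The log2 fold change of Hep-Bmal1KO against Hep-Bmal1WT labels was 2.99 (SE 0.36), or 7.94-fold, with all libraries and 3.67 (SE 0.14), or 12.8-fold, without the 4.

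The difference on NC was there at each time of day. At ZT14 the livers labelled Hep-Bmal1WT had 24.8, 17.6, 13.3 and 8.54 CPM of Lpl and those labelled Hep-Bmal1KO 341, 400, 264 and 250 CPM. At ZT2 the values were 30.8, 28.9, 23.2 and 16.8 CPM against 364, 338, 214 and 367 CPM, and at ZT22 they were 19.9, 26.6, 18.3 and 50.6 CPM against 357, 388, 331 and 379 CPM. The lowest liver labelled Hep-Bmal1KO was above the highest labelled Hep-Bmal1WT at each of these ZTs. At ZT6 the livers labelled Hep-Bmal1WT had 74.8, 539.8, 28.7 and 65.7 CPM and those labelled Hep-Bmal1KO 467, 419, 331 and 17.1 CPM, so that 1 liver of each label had the level of the other. The ratio of the means ran from 1.74 at ZT6 to 19.5 at ZT14 with all libraries, and from 7.19 to 19.5 without the 4. The plot of Lpl over the day shows both the separation of the labels and the libraries that cross it.

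**Figure D1:**
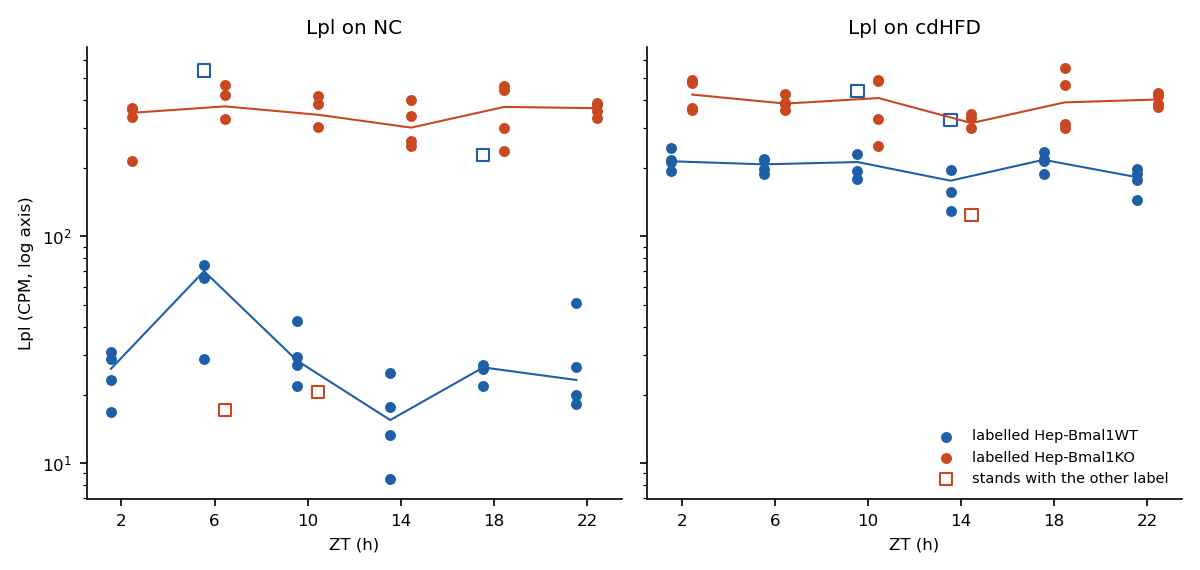
Lpl in every liver by ZT, in CPM on a log axis, on NC (left) and cdHFD (right), in blue for livers labelled Hep-Bmal1WT and red for Hep-Bmal1KO, with lines through the medians of 4 livers and open squares for the 7 libraries that stand with the other label. On NC the filled points of the 2 labels are apart at all 6 ZTs, from 8.54 to 74.8 against 214.5 to 466.9 CPM, and on cdHFD the gap is narrower.

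On cdHFD the Lpl of both labels was high. The lowest, median and highest level was 129, 198 and 439 CPM in livers labelled Hep-Bmal1WT and 124, 379 and 556 CPM in livers labelled Hep-Bmal1KO. The 439 CPM and the 124 CPM came from libraries that stand with the other label, and without the 3 on this diet the ranges were 129 to 244 CPM and 250 to 556 CPM, again with no overlap. Only 4 genes (0.0257%) had none on this diet, Fitm1, Gapdh, Hebp2 and Lpl. The log2 fold change between labels was 0.83 (SE 0.10), or 1.78-fold, and 0.99 (SE 0.068), or 1.99-fold, without the 3.

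The diets differed by a log2 fold change of 2.38 (SE 0.30) in Lpl under the label Hep-Bmal1WT, and of 0.22 (SE 0.19) under the label Hep-Bmal1KO. Without the 7 libraries these were 2.82 (SE 0.13), or 7.06-fold, and 0.14 (SE 0.084), or 1.10-fold. The term of label with diet was -2.15 (SE 0.35) with all libraries and -2.68 (SE 0.15) without the 7. The order of the 4 groups by median was therefore Hep-Bmal1WT on NC, Hep-Bmal1WT on cdHFD, Hep-Bmal1KO on NC and Hep-Bmal1KO on cdHFD. Without the 7 libraries the 2 Hep-Bmal1KO groups overlapped over most of their range, at 214.5 to 466.9 and 250 to 556 CPM. Hep-Bmal1WT on cdHFD, with 129 to 244 CPM, overlapped the lower end of Hep-Bmal1KO on NC, and Hep-Bmal1WT on NC, with at most 74.8 CPM, overlapped no other group.

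Markers of other liver cells were read beside these values, since macrophages also make Lpl and since in whole liver more cells of a type and more RNA per cell cannot be told apart. On NC none of 12 macrophage markers passed the test between the labels, and their summed level ran from 232 to 621 CPM under the label Hep-Bmal1WT and from 198 to 649 CPM under Hep-Bmal1KO. None of 7 endothelial, 8 stellate and 4 tested adipocyte markers passed either, and of 3 cholangiocyte markers 1 was higher. Of all genes tested 12.6% passed between the labels on NC, a share at which lists this short can hold no call. On cdHFD all 12 macrophage markers were higher under both labels, with summed levels of 1097 to 2807 CPM and of 1548 to 3218 CPM. Between diets 55.7% of all genes passed under Hep-Bmal1WT and 61.9% under Hep-Bmal1KO. Between the labels on cdHFD, 4 macrophage markers were higher and 1 lower, and 5 of 8 stellate markers were higher, with summed stellate levels of 514 to 1037 CPM and 493 to 1486 CPM. Of all genes 9.61% passed between the labels on cdHFD, and 13% without the libraries that stand with the other label. Of the 3 cholangiocyte markers 2 were higher under Hep-Bmal1KO than under Hep-Bmal1WT on cdHFD, and 3 without the libraries that stand with the other label, with summed medians of 20.04 and 35.5 CPM (13.2 and 27.5 CPM on NC). Their part in the level of Lpl on cdHFD was not tested. The summed adipocyte list had a median of at most 0.640 CPM in each of the 4 groups, with single livers up to 85.9 CPM, and leptin was at 0 in every liver labelled Hep-Bmal1WT on NC. The 4 hepatocyte genes had a summed median of 145887 CPM under the label Hep-Bmal1WT and 96713 CPM under Hep-Bmal1KO on NC, and of 71750 and 60805 CPM on cdHFD. Between labels 1 of the 4 was higher and 1 lower on NC, and 1 lower on cdHFD, and all 4 were lower on cdHFD than on NC under both labels. As a description over 24 livers a group, which share library and depth, their sum and Lpl had a Pearson r of -0.58 under Hep-Bmal1WT and -0.87 under Hep-Bmal1KO on NC, and of -0.22 and -0.49 on cdHFD. In the same order these were -0.19, -0.73, -0.08 and -0.36 without the libraries that stand with the other label. The part of these genes in the differences of Lpl, Lipc and Lmf1 was not tested.

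Of the other lipases, Lipc was higher and Lipg lower under the label Hep-Bmal1KO on NC. Lipc, the hepatic lipase, had a lowest, median and highest level of 150, 220 and 343 CPM in livers labelled Hep-Bmal1WT on NC and of 240, 313 and 451 CPM in livers labelled Hep-Bmal1KO, a log2 fold change of 0.55 (SE 0.097) that was 0.65 (SE 0.093) without the 4 libraries. Its mean was higher under the label Hep-Bmal1KO at 6 of 6 ZTs, by 1.35- to 1.61-fold. On cdHFD the levels were 73.7, 107 and 156 CPM and 43.6, 128 and 206 CPM, with a log2 fold change of 0.18 (SE 0.090). cdHFD thus had the lower Lipc under both labels, by a log2 fold change of -1.06 (SE 0.099) under Hep-Bmal1WT and of -1.44 (SE 0.10) under Hep-Bmal1KO, where no liver on cdHFD reached the lowest on NC. Under the label Hep-Bmal1WT that diet difference is opposite in sign to that of Lpl, which under Hep-Bmal1KO was 0.22 (SE 0.19).

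Lipg, the endothelial lipase, was low throughout and lower under the label Hep-Bmal1KO. Its lowest, median and highest level on NC was 0.972, 7.95 and 19.7 CPM under the label Hep-Bmal1WT and 0, 3.68 and 11.9 CPM under Hep-Bmal1KO, and the 11.9 CPM came from a library that stands with the other label. On cdHFD the levels were 1.43, 4.90 and 14.8 CPM and 1.07, 2.46 and 8.65 CPM. The log2 fold change between labels was -0.98 (SE 0.24) on NC and -0.69 (SE 0.19) on cdHFD, and -1.31 (SE 0.21) and -0.84 (SE 0.18) without the 7 libraries. The mean was lower under the label Hep-Bmal1KO at all 6 ZTs on NC and at 5 of 6 on cdHFD.

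Lmf1 followed the diet. It had 58.8 ± 7.27 and 66.3 ± 11.2 CPM on NC and 36.9 ± 4.19 and 36.3 ± 4.20 CPM on cdHFD (mean ± SD, n = 24 each), for the labels Hep-Bmal1WT and Hep-Bmal1KO. The log2 fold change of cdHFD against NC was -0.66 (SE 0.050) and -0.86 (SE 0.054), and that between labels 0.17 (SE 0.050) on NC and -0.03 (SE 0.051) on cdHFD. Lmf1 was therefore lower, and Lpl higher, on cdHFD than on NC under the label Hep-Bmal1WT.

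Angptl4, the inhibitor, had a lowest, median and highest level of 22.0, 61.7 and 133 CPM in livers labelled Hep-Bmal1WT on NC and of 11.2, 38.1 and 98.7 CPM in livers labelled Hep-Bmal1KO, a log2 fold change of -0.63 (SE 0.17). On cdHFD the levels were 51.3, 83.3 and 151 CPM and 36.9, 87.8 and 190 CPM, and the log2 fold change was 0.10 (SE 0.11). The diet difference was 0.42 (SE 0.13) under the label Hep-Bmal1WT and 1.15 (SE 0.15) under Hep-Bmal1KO, and the term of label with diet 0.73 (SE 0.20). On NC Angptl4 and Lpl thus stood in opposite directions between the labels over all ZTs, and on cdHFD only Lpl differed by more than its SE. By ZT on NC, the Hep-Bmal1KO mean of Angptl4 over the Hep-Bmal1WT mean ran from 0.37 at ZT14 to 1.05 at ZT22. It was 0.99 at ZT6. Within groups of 4 livers, the 2 genes had a Pearson r of -0.18 over the 89 livers without the 7 libraries, as a description.

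Cd36 had a lowest, median and highest level of 23.2, 66.8 and 99.9 CPM in livers labelled Hep-Bmal1WT on NC and of 19.6, 95.8 and 181 CPM in livers labelled Hep-Bmal1KO, a log2 fold change of 0.51 (SE 0.20). On cdHFD it had 146, 200.1 and 277 CPM and 132, 218 and 315 CPM, a log2 fold change of 0.09 (SE 0.066). The diet difference was large under both labels, 1.66 (SE 0.099) and 1.24 (SE 0.19), and under the label Hep-Bmal1WT no NC liver reached the lowest cdHFD liver. The macrophage markers above, cells that also carry CD36, were higher on cdHFD in the same livers, and their part in the diet difference of Cd36 was not tested. Within the 4 groups, the summed macrophage markers and Cd36 had a Pearson r between -0.19 and 0.27 over 24 livers each, as a description. Vldlr had medians of 4.40 and 4.61 CPM on NC and of 5.30 and 6.83 CPM on cdHFD, and its log2 fold changes by label or diet lay between -0.22 and 0.57, with an SE of 0.21 to 0.35.

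In all, 5 of 7 members passed the test between labels on NC (Lpl, Lipc and Lmf1 higher, Lipg and Angptl4 lower), where 12.6% of all genes did. On cdHFD 2 of 7 passed (Lpl and Lipg), where 9.61% of genes did, and 3 without the 7 libraries (13%). Between diets 6 of 7 passed under the label Hep-Bmal1WT and 4 of 7 under Hep-Bmal1KO, where 55.7% and 61.9% of all genes did. The members' counts were the same without the 7 libraries, with 53.9% and 61.7% of genes, and so was that on NC between labels, with 17.1%. No liver overlapped between the diets for Cd36 under the label Hep-Bmal1WT (3.74% of all genes) and for Lipc under Hep-Bmal1KO (5.74%). Without the 7 libraries these were Lpl, Lipc and Cd36 under the first label (4.07%) and Lipc under the second (6.97%). The term of label with diet passed in 2 of 7, Lpl and Angptl4, with 3.04% of all genes, and in 3 with Lipc and 5.91% of genes without the 7 libraries. The median log2 fold change of the 7 was 0.51 on NC and 0.10 on cdHFD, beside -0.01 and 0.01 over all genes tested. The members were chosen with these contrasts known, and the comparisons of the same label or diet share livers, so nothing more is read from the counts.

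**Figure D2:**
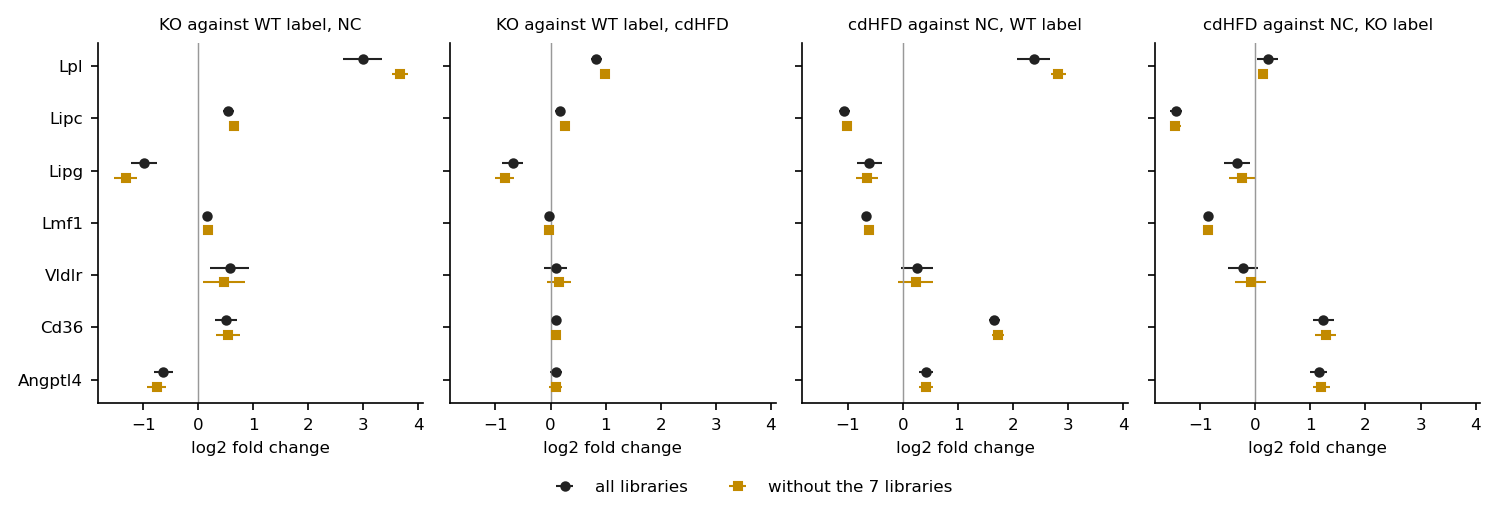
Log2 fold changes of the 7 members (points) with their SE (bars), for Hep-Bmal1KO against Hep-Bmal1WT labels on each diet and for cdHFD against NC under each label, in black with all libraries and in ochre without the 7 libraries that stand with the other label. Lpl lies farthest from 0 in the first 3 panels, at 2.99, 0.83 and 2.38 with all libraries, and at 0.22 in the fourth.

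Time of day was the smaller part of the variation for Lpl. The sum of squares of log2 CPM was split over diet, label, ZT, sex and the spread between livers of 1 group. Without the 7 libraries, label took 52.6% of that of Lpl, diet 22.8%, label with diet 17.8% and ZT 1.48%. Diet took 67.9% for Lipc, 78.6% for Lmf1 and 66.7% for Cd36. ZT alone took 22.5% for Vldlr and 15.7% for Angptl4, the 2 members with the largest share. The terms of ZT with label or diet took 22.2% for Lipg and 12.3% for Angptl4, the largest such shares, and 1.55% for Lpl. For Lipg the spread between livers of a group was the largest part, 35.9%. With all 96 libraries the share between livers of a group was 21.2% for Lpl, beside 3.41% without the 7.

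**Figure D3:**
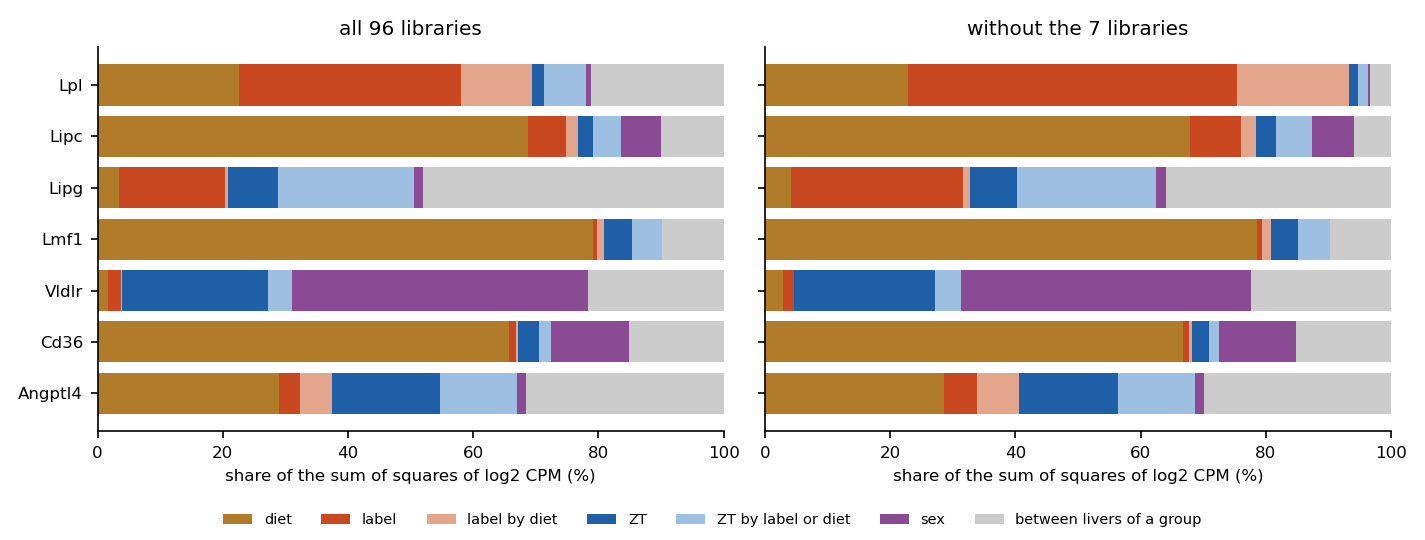
Share of the sum of squares of log2 CPM (prior count 2) that goes with diet, label, ZT, their combinations and sex, and the rest between livers of a group, for each member with all 96 libraries (left) and without the 7 that stand with the other label (right). For Lpl the label share is 35.4% on the left and 52.6% on the right, and for Vldlr sex is the largest part on both sides.

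Rhythm was tested in edgeR with a period of 24 hours, at the study's unadjusted p under 0.01. The study called a gene that met this p in any of several other programs, so its calls and these are not the same measure. Over the day, this threshold was met by 2 of 7 members in livers labelled Hep-Bmal1WT on NC, where 19.4% of all genes met it. Without the libraries that stand with the other label the same 2 members and 18% of genes met it. These were Cd36, with a fitted peak at ZT 8.61 and means from 44.8 CPM at ZT22 to 82.7 CPM at ZT10, and Angptl4, with a peak at ZT 9.52 and means from 42.3 CPM at ZT18 to 107 CPM at ZT10. In livers labelled Hep-Bmal1KO on NC 1 of 7 met it (9.01% of all genes, and 8.55% without the libraries that stand with the other label), Lmf1, with means from 52.04 CPM at ZT2 to 78.2 CPM at ZT18. The Angptl4 of these livers had 11.2, 18.4, 32.1 and 31.7 CPM at ZT2, 67.7, 62.4, 69.98 and 53.1 CPM at ZT6, and 37.4, 19.2, 28.4 and 30.9 CPM at ZT14. Its means were 63.3 CPM at ZT6 and 64.7 CPM at ZT10 (66.7 and 53.4 CPM without the 2 libraries that stand with the other label), 32.5 CPM at ZT18 and 54.3 CPM at ZT22.

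On cdHFD the threshold was met by Lipg and Vldlr under the label Hep-Bmal1WT (16.1% of all genes) and by Lipc, Lipg and Vldlr under the label Hep-Bmal1KO (8.46%). Without the libraries that stand with the other label, Lipc met it as well under Hep-Bmal1WT (15.3% of genes) and Vldlr no longer under Hep-Bmal1KO (8.44%). Vldlr was high early in the day in all 4 groups. Its mean at ZT2 and at ZT14 was 13.7 and 3.17 CPM in livers labelled Hep-Bmal1WT on cdHFD, and 9.74 and 5.12 CPM in those labelled Hep-Bmal1KO. Lipg had its highest mean at ZT6 on cdHFD under both labels, 10.9 and 5.01 CPM, and at ZT10 on NC under the label Hep-Bmal1WT, 13.8 CPM. Under the label Hep-Bmal1KO on NC the mean at ZT10 was 5.15 CPM with all libraries and 2.91 CPM without replicate 3, which stands with the other label, and the highest mean was then 4.05 CPM at ZT14. Lipc on cdHFD had its highest mean at ZT2 under both labels, 130 and 169 CPM, whereas on NC its means over the day lay between 216 and 230 CPM and between 311 and 348 CPM. The threshold is not adjusted for the number of genes. At an adjusted p under 0.05, 2 members met it in livers labelled Hep-Bmal1WT on each diet, 1 in Hep-Bmal1KO on NC and 1 in Hep-Bmal1KO on cdHFD. The main tests of rhythm and of its difference between labels held no term for sex. The sex differences of Vldlr and Cd36 therefore stayed in the spread of these tests. A missing call there does not show that a rhythm or a difference is absent. A difference in rhythm between the labels passed the test for none of the 7 members on either diet. In edgeR's test 61 genes (0.392%) passed on NC and 66 (0.424%) on cdHFD, and at an unadjusted p under 0.05 none of the 7 on NC and 1 on cdHFD. Without the 7 libraries 1.15% and 0.431% of genes passed, again with none of the members. At an unadjusted p under 0.05 these were then 1 of the 7 on NC (Lpl) and none on cdHFD. The plot of the other members by ZT shows these profiles, which cannot be told apart from plate position and set of animals.

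**Figure D4:**
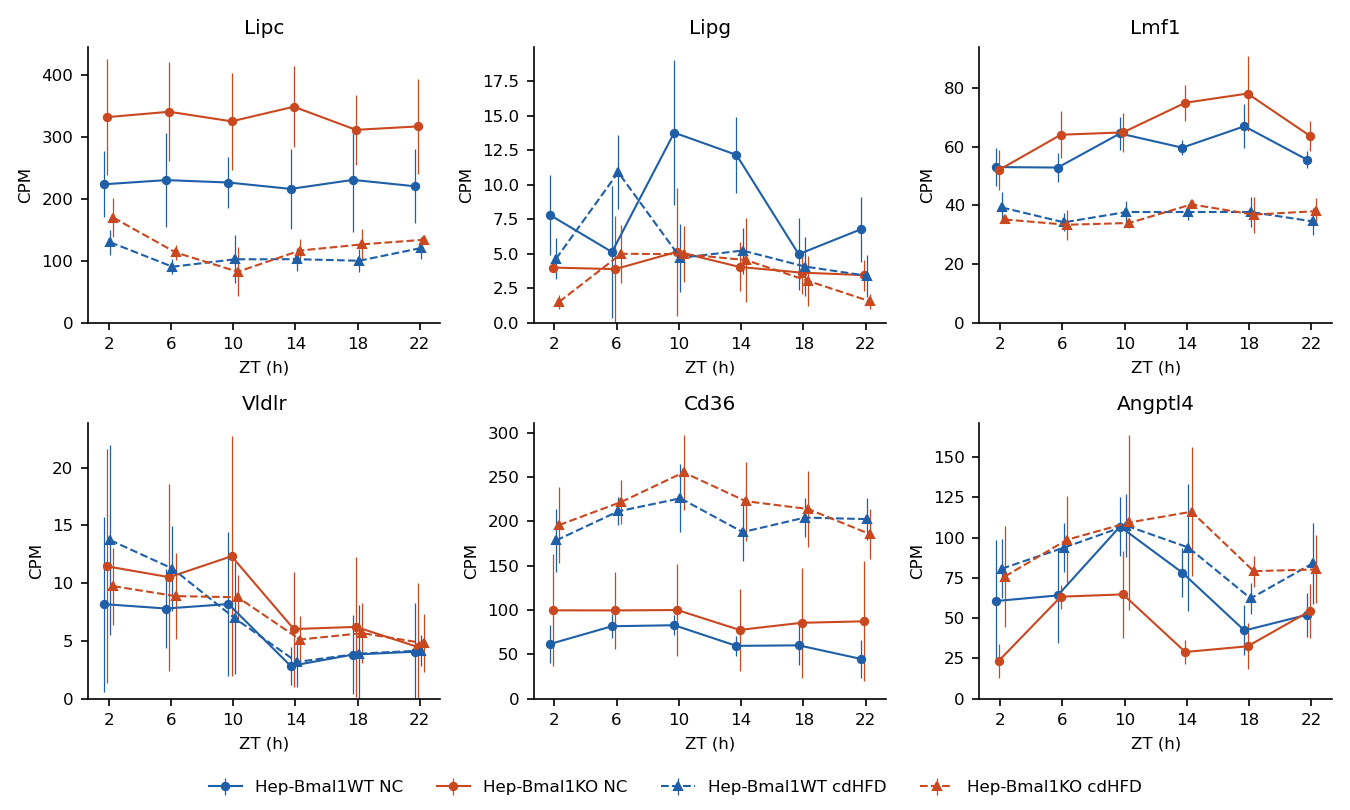
Mean CPM ± SD of 4 livers by ZT for the 6 members other than Lpl, in blue for livers labelled Hep-Bmal1WT and red for Hep-Bmal1KO, with solid lines for NC and broken lines for cdHFD. Under each label the means of Lipc and Lmf1 are lower, and that of Cd36 higher, on cdHFD than on NC at every ZT, and the mean of Vldlr is lower at ZT14 than at ZT2 in each group.

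Sex was not used in choosing the members, so it was tested on them, within groups of label, diet and ZT. Males and females lay in separate plate rows on NC, so the sex differences on NC cannot be told apart from plate row. Those on cdHFD can be told apart from it only in part. Each replicate number on NC held a single sex, so leaving out a number removes NC mice of that sex only. Vldlr was the member that differed most between females and males. On NC its lowest, median and highest level was 0.162, 2.11 and 10.5 CPM in 24 males and 3.65, 10.6 and 25.1 CPM in 24 females. The mean of the females was the higher in 12 of 12 groups of label and ZT, and the log2 fold change was 2.29 (SE 0.20, or 4.90-fold, adjusted p = 8.7e-13). On cdHFD the levels were 0.268, 3.28 and 10.7 CPM in 25 males and 3.35, 9.97 and 23.4 CPM in 23 females, again with the females higher in 12 of 12 groups, and a log2 fold change of 1.14 (SE 0.13, adjusted p = 1.3e-08). The smaller difference on cdHFD was itself past the test (sex with diet, -1.13, SE 0.25, adjusted p = 8.3e-04), though not without replicate 2 of every group (-1.05, adjusted p = 0.077). Sex took 46.3% of the sum of squares of Vldlr without the 7 libraries, more than label and diet together.

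Cd36 was also higher in females, and its difference depended on diet and on label. On NC the levels were 19.6, 45.1 and 87.7 CPM in males and 56.2, 106 and 181 CPM in females, with females higher in 12 of 12 groups and a log2 fold change of 1.08 (SE 0.13, adjusted p = 1.2e-08). On cdHFD the log2 fold change was 0.28 (SE 0.054, adjusted p = 3.0e-04), with females higher in 11 of 12 groups, and the term of sex with diet was -0.81 (SE 0.14, adjusted p = 3.0e-05). On NC the sex difference was the larger under the label Hep-Bmal1KO (sex with label, 1.07, SE 0.21, adjusted p = 0.0047), and Cd36 was the only member to pass this test, with 80 genes (0.515%) in all. In livers labelled Hep-Bmal1KO the 12 males had 19.6, 42.2 and 80.1 CPM and the 12 females 111, 126 and 181 CPM, with no overlap. In livers labelled Hep-Bmal1WT the males had 23.2, 47.6 and 87.7 CPM and the females 56.2, 69.2 and 99.9 CPM. The log2 fold change between labels on NC was 0.86 among females and -0.20 among males. Without the 4 NC libraries the term of sex with label was 1.22 (SE 0.21, adjusted p = 5.7e-04), and 0.695% of genes passed. It missed the threshold when replicate 2, 3 or 4 of every group was left out, with values of 0.72, 1.12 and 1.02 (adjusted p = 0.320, 0.072 and 0.059). On cdHFD no gene passed the test of sex with label in edgeR (1337 had an unadjusted p under 0.05, and DESeq2 called 21), and Cd36 had -0.06 (SE 0.11). Without the 3 libraries on this diet 39 genes (0.251%) passed, with no member among them.

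**Figure D5:**
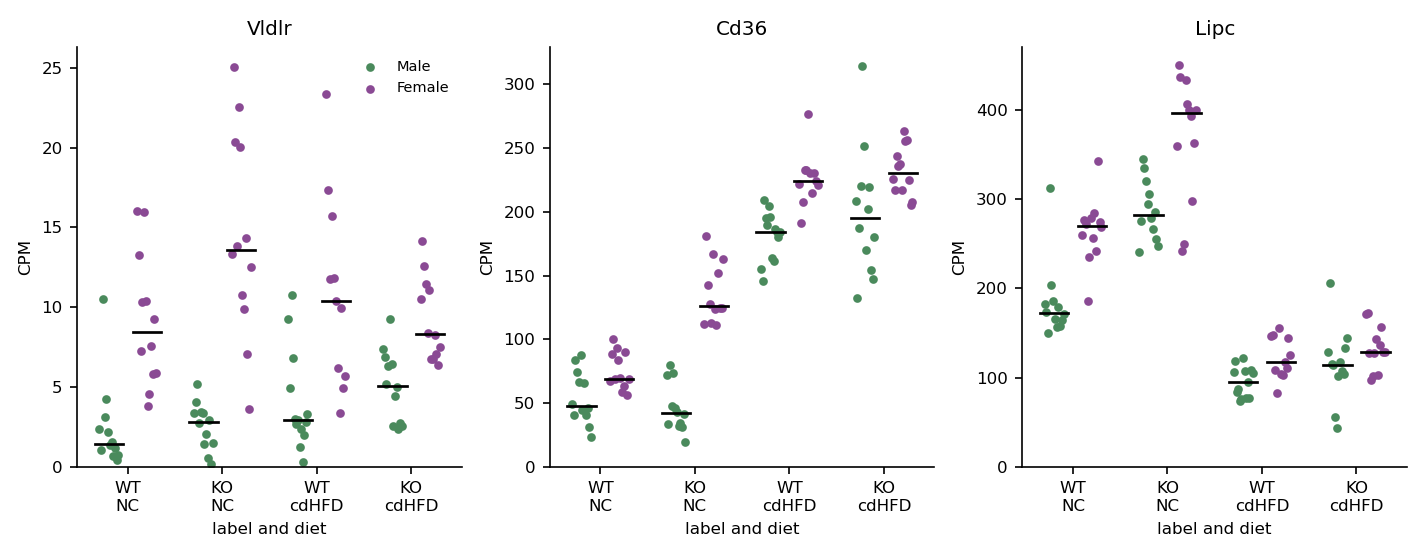
Vldlr, Cd36 and Lipc in CPM in every liver, by label and diet, in green for males and purple for females, with a bar at the median. The Cd36 of males and females is apart in livers labelled Hep-Bmal1KO on NC, at 19.6 to 80.1 against 111 to 181 CPM, and overlaps in the other 3 groups.

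Lipc was higher in females on both diets, by a log2 fold change of 0.45 on NC (SE 0.075, adjusted p = 1.2e-05) and 0.33 on cdHFD (SE 0.076, adjusted p = 0.0037), with females higher in 10 of 12 groups each time. Its median on NC was 172 CPM in males and 270 CPM in females labelled Hep-Bmal1WT, and 282 and 397 CPM in those labelled Hep-Bmal1KO. The cdHFD difference missed the threshold when replicate 2 or replicate 3 was left out (adjusted p = 0.082 and 0.248). Angptl4 was higher in females on NC by 0.39 (SE 0.14, adjusted p = 0.035), in 7 of 12 groups, and this too was lost without replicate 2 or 3 (adjusted p = 0.441 and 0.132).

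Lpl stood in the other direction on NC, past the threshold only without the 4 libraries. With all libraries the log2 fold change of females against males was -0.56 (SE 0.29, adjusted p = 0.190), with females lower in 10 of 12 groups, and without them it was -0.39 (SE 0.10, adjusted p = 0.0057). On cdHFD it was 0.21 (SE 0.097, adjusted p = 0.227), with females higher in 8 of 12 groups. The term of sex with diet was 0.76 (SE 0.31, adjusted p = 0.117) with all libraries and 0.53 (SE 0.13, adjusted p = 0.0025) without the 7. In all, 4 of 7 members passed the test of sex on NC, where 18.6% of all genes did, and 3 of 7 on cdHFD, where 5.76% did. Without the 7 libraries 5 passed on NC (18.4% of genes) and 3 on cdHFD (6.48%). The term of sex with diet passed for 2 of 7, beside 7.91% of all genes, and for 3 beside 8.44% without the 7 libraries. In livers labelled Hep-Bmal1KO on NC, 1 of 7 members did not overlap between the sexes, beside 0.669% of all genes.

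Markers of other cells also differed by sex on NC, where 18.6% of all genes passed. Of the macrophage markers 9 of 12 were higher in females, and their summed level had a median of 352 CPM in males and 519 CPM in females labelled Hep-Bmal1WT, and of 317 and 458 CPM under the label Hep-Bmal1KO. Of the endothelial markers 6 of 7 were higher in females. Of the 4 hepatocyte genes 1 was higher, and their summed median was 131263 CPM in males and 190995 CPM in females labelled Hep-Bmal1WT, and 90831 and 120630 CPM under Hep-Bmal1KO. On cdHFD none of the macrophage markers and 1 endothelial marker passed, beside 5.76% of all genes. The term of sex with diet passed for 8 of 12 macrophage markers, in the same direction as Cd36, beside 7.91% of all genes. Sex with label on NC passed for no macrophage or endothelial marker and for 1 of the 4 hepatocyte genes, with a negative term. Only 0.515% of all genes passed that test, so no call in lists this short says little. The part of these markers in the sex difference of Cd36 and Vldlr was not tested. Over the 89 livers, within groups of 4, Vldlr and Cd36 had a Pearson r of 0.75, Lipc and Vldlr 0.64, and Lipc and Cd36 0.53, as a description of livers that differ in sex within each group and share library and depth.

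The wider pathway was read from 44 other genes for lipase control, remnant uptake, fatty acid transport, intracellular lipolysis and the nuclear receptors of this pathway, all of which were tested. Between the labels on NC 4 were higher and 6 lower under Hep-Bmal1KO, beside 12.6% of all genes called, and 4 were higher and 10 lower without the libraries that stand with the other label (17.1%). Ppard, a nuclear receptor for fatty acids, was higher by 1.04 (SE 0.23). The liver fatty acid-binding protein Fabp1 was lower by a log2 fold change of -0.68 (SE 0.085) and G0s2, an inhibitor of adipose triglyceride lipase, by one of -0.64 (SE 0.20). On cdHFD 2 were higher and 6 lower, beside 9.61% of all genes, and 3 and 7 without those libraries (13%). Fabp5, another fatty acid-binding protein, was higher by 0.65 (SE 0.091) and the fatty acid transporter Slc27a1 by 0.52 (SE 0.11). Of the 12 genes of lipase control none passed between the labels on NC with all libraries and 1 was lower without the 4, and on cdHFD 2 were lower. Gpihbp1, which carries lipoprotein lipase to the capillary wall, had -0.05 (SE 0.10) on NC and the inhibitor Angptl8 -0.46 (SE 0.24).

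Of the 44 genes 7 were higher and 27 lower on cdHFD under the label Hep-Bmal1WT, and 9 higher and 26 lower under Hep-Bmal1KO, beside 55.7% and 61.9% of all genes called. The counts were 9 and 25, and 9 and 26, without the 7 libraries (53.9% and 61.7%). Slc27a5, which takes up fatty acids and activates bile acids in the liver, was lowest against NC under both labels, at -2.11 (SE 0.057) and -2.26 (SE 0.077). Acsl1, which couples fatty acids to coenzyme A, was at -1.56 (SE 0.088) and -1.59 (SE 0.069). The uptake gene Cd36 thus differed from these genes of fatty acid handling in direction. The term of label with diet passed for 3 of the 44, beside 3.04% of all genes, and for 3 higher and 3 lower without the 7 libraries (5.91%). The former were Fabp1 (0.40, SE 0.12), the HDL receptor Scarb1 (-0.33, SE 0.099) and Lrpap1, a chaperone of lipoprotein receptors (-0.23, SE 0.069).

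By sex, 10 of the 44 were higher and 5 lower in females on NC, beside 18.6% of all genes called, and 10 higher and 1 lower on cdHFD, beside 5.76%. The counts without the 7 libraries were 9 and 6 on NC (18.4%), and 11 and 2 on cdHFD (6.48%). Slc27a1 was higher by 0.59 on NC (SE 0.15, adjusted p = 0.0022), and Fabp5 was lower, at -0.65 (SE 0.17, adjusted p = 0.0042), as was Abhd5, the activator of adipose triglyceride lipase, at -0.52 (SE 0.068, adjusted p = 6.3e-08). On cdHFD the acyl-CoA synthetase Acsl4 was lower in females, at -0.51 (SE 0.058, adjusted p = 5.3e-09). Sex with label on NC passed for Fabp5 (-1.26, SE 0.28, adjusted p = 0.021) and Apoc3, an inhibitor of lipoprotein lipase (-0.36, SE 0.079, adjusted p = 0.018), and both had the sign opposite to that of Cd36.

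The genes whose mean level over the 24 groups was most like that of a member were found among 8999 genes with a mean of at least 5 CPM, as a description, since the means share libraries. For Lpl they were Ano10 (Pearson r = 0.905), Gstm3 (0.893) and Scd2 (0.888). For Lipc they were Hibadh (0.979), Plg (0.979) and Pon1 (0.974), and for Lmf1 Tle5 (0.973), Cyp2d22 (0.969) and Ugt2b38 (0.962). For Cd36 they were H2-DMb1 (0.979), Rhbdf2 (0.975) and Mpeg1 (0.971), of which Mpeg1 is known from macrophages and H2-DMb1 from antigen-presenting cells. For Angptl4 they were Maff (0.905), Nfkbia (0.884) and Dnmbp (0.884). The 2 genes with few reads had the lowest values, with at most 0.818 (Chd3) for Lipg and 0.848 (Lsm7) for Vldlr.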

How the data were processed

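BRB-seq libraries of 96 mouse livers were sequenced and deposited by the authors as raw counts per gene, not normalized. Per the labels and the study's methods, reads were demultiplexed with BRB-seq tools, aligned to mm10 with STAR and counted with HTSeq (featureCounts is also named). Versions and any collapsing of molecular identifiers are not given in the sources used here. Reads not assigned to a gene, 22.6% to 39.9% of a library, were left out of library sizes.

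Samples were grouped by the labels' genotype, diet, sex and ZT. As in the study, a gene needed 100 counts in all to be kept (15548 of 55487). CPM used TMM-scaled library sizes, and log2 values a prior count of 2. Comparisons used edgeR's quasi-likelihood test (edgeR 4.0.16, R 4.3.3) with Benjamini-Hochberg adjustment over all genes tested and a threshold of 0.05. ZT was a factor in tests of label and diet, and groups of label, diet and ZT in tests of sex. Rhythm used edgeR's test of a cosine and sine term of 24 hours, with no term for sex, and an unadjusted p under 0.01. The study used the same p but called a gene that met it in any of several other programs. The tests were also run on simulated counts. DESeq2 1.42.0, other filters and scalings, single sexes and the removal of libraries were alternatives.

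The members and lists were chosen with earlier results of these data known, so differences by label, diet and ZT are given as descriptions. For these, calls are counted beside the share of all genes, with no p for a member or a listed gene. P-values are given for sex. All 7 members are described. Of the pathway lists at most the 3 called genes with the largest change per comparison are named, with Gpihbp1 and Angptl8 added after their values were seen, and 3 most alike genes per member. Depth was 1861740 to 9718615 counts, and counts cover sampling error only. No 2 libraries of a group agreed within sampling noise (chi-square per degree of freedom at least 4.24). Nothing says that the 4 livers of a group came from separate litters or cages, and p-values measure the spread between these livers. Some genes of the pathway lists are not reported here by name.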

Additional observations from a re-analysis of the deposited data

Results flagged for a closer look

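In 7 of 168 sets of 4 livers, 1 liver stood apart from the other 3 by Dixon's criterion, which chance alone meets in about 1 of 20 sets. For Lpl on NC these were Hep-Bmal1WT ZT6 replicate 2, with 539.8 CPM beside at most 74.8 CPM in the others, and ZT18 replicate 4, with 228.9 CPM beside at most 26.9 CPM, both among the libraries that stand with the other label. Angptl4 had 3 such livers, all labelled Hep-Bmal1KO: 53.9 CPM on NC at ZT18 (replicate 4), and on cdHFD 190.0 CPM at ZT10 (replicate 1) and 111.8 CPM at ZT22 (replicate 2). Lipg had 12.1 CPM in Hep-Bmal1WT NC ZT2 replicate 1, and Lmf1 had 47.2 CPM in Hep-Bmal1WT cdHFD ZT2 replicate 4.

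The difference between labels was not the same on the 2 diets for Lpl (term of label with diet -2.15) and Angptl4 (0.73), genes chosen with these values known. The difference between sexes was smaller on cdHFD for Vldlr (-1.13) and Cd36 (-0.81), and that of Cd36 on NC was larger under the label Hep-Bmal1KO (1.07).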

How the results depend on the processing

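No paired analysis was possible because replicate numbers were given in accession order and tie no mice across groups. The numbers do go with sex: 1 and 2 were males and 3 and 4 females in every NC group and in most cdHFD groups. Leaving out a replicate number therefore removes mostly mice of 1 sex. Of 539 recomputed log2 fold changes of members, 480 kept their direction and side of the threshold, 28 lost the call, 17 gained one and 14 turned. The count of members called stayed within 1.5 times in 155 of 178 recomputations. DESeq2 gave no adjusted p for Lpl between diets under the label Hep-Bmal1WT. Leaving out each replicate in turn gave 3 to 5 members for label on NC, 1 to 2 on cdHFD, 1 for label with diet in every case, and 0 to 2, 0 to 1, 1 to 2 and 1 to 2 for rhythm in Hep-Bmal1WT NC, Hep-Bmal1KO NC, Hep-Bmal1WT cdHFD and Hep-Bmal1KO cdHFD. It gave 1 to 3 for sex with diet and 0 to 1 for sex with label on NC. Other settings gave 1 member for label on cdHFD in females alone, 7 for diet under the label Hep-Bmal1KO in females alone, 1 for label with diet in males alone, 1 for rhythm in Hep-Bmal1WT cdHFD with a cosinor test on log2 CPM and 1 in Hep-Bmal1KO cdHFD at an adjusted p under 0.05. With every gene of at least 1 count, sex with diet passed for 4 and sex with label on NC for 2. The causes were not tested. Between labels, Lipg missed the threshold on NC without replicate 1 and on cdHFD without replicate 2, and Lmf1 on NC without replicate 1, 2 or 3. Between diets under the label Hep-Bmal1WT, Lipg missed it without replicate 1 or 3 and Angptl4 without replicate 2.

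Directions turned for values near 0 or in 1 sex. Between labels these were Cd36 on NC in males (-0.20), and on cdHFD Lmf1 in males (0.011) and without replicate 4 (0.016, with -0.060 as the lowest value on leaving out a replicate), Angptl4 in males (-0.0095) and Vldlr in females (-0.12). Between diets under the label Hep-Bmal1KO they were Vldlr without replicate 3 (0.058) or 4 (0.10, with -0.44 as the lowest), with sex as a covariate (0.047) and in males (1.03), and in males Lpl (-0.19) and Lipg (0.10). For label with diet they were Vldlr (0.24) and Cd36 (0.32) in males and Lipg (-0.088) in females. The call of Angptl4 for label with diet was lost without any 1 of the 4 replicate numbers.

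Over all genes, the count for label was 1960 on NC (578 in females alone, 2656 without the libraries that stand with the other label) and 1494 on cdHFD (522 without replicate 2), for label with diet 473 (103 to 919) and for sex with label on NC 80 (10 to 425). For sex it was 2894 on NC (1709 without replicate 2), 896 on cdHFD (388) and 1230 with diet (510). Rhythm differing between labels had 61 genes on NC (0 to 179) and 66 on cdHFD (0 to 164). Leaving out the 1 female with little Xist, an alternative added after the data had been seen, changed no call of a member by sex. Vldlr and Lipg had medians of 42 and 28 counts, which limits their precision.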
